A study of Rattus norvegicus with 32 samples.

Results

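The genes described here are 10 markers of macrophages and monocytes, Cd163, Mrc1, Cd68, Csf1r, Lyz2, Lyve1, Msr1, Marco, Fcgr2b and Aif1, among 43628 gene names on a rat array. They are established markers, taken by name with earlier results of these data known. A probe belonged to a gene when its spot was no control and its gene name, in either annotation version of the scanner files, was that of the gene. All 10 genes had a probe, 15 probes in all, and each gene is given by the probe with the highest mean over all arrays. RNA came from whole left ventricles of 32 Wistar rats aged 9 to 12 weeks, collected 20 h after surgery. In each sex, 5 rats had sham surgery, 5 had cecal ligation and puncture (CLP, a surgical model of abdominal sepsis) followed by saline, and 6 had CLP plus landiolol. Landiolol, a β1-selective blocker that the body clears quickly, was infused at 0.1 mg/kg/min from 1 h after CLP. Buprenorphine was given against pain before surgery, the infusion held no antibiotics, and hearts were imaged in the animal and then perfused outside the body before they were frozen. RNA of each rat went onto its own array, and n counts rats.

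Macrophages live in the heart before any injury, and further monocytes enter it from the blood during sepsis. The resident cells are known for scavenger receptors such as Cd163 and Mrc1 and, in part, for Lyve1. Csf1r is a growth factor receptor of macrophages. Cd68 and Lyz2 belong to the lysosome and its enzymes, Msr1 and Marco bind modified lipoproteins and bacteria, Fcgr2b is the inhibitory receptor for IgG, and Aif1 binds actin in activated macrophages. Lyz2 is also made by neutrophils, Lyve1 by lymphatic endothelium and Fcgr2b by B cells and some endothelia, so these markers are not each limited to macrophages. In RNA of a whole ventricle, fewer or more cells of a type and less or more RNA per cell cannot be told apart. The tissue label was borne out by Myh6, the myosin heavy chain of cardiomyocytes, which was well above background on all arrays.

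The array measures a gene through oligonucleotides of 60 bases. The first 30 bases of the probes behind the main results are shown because several of these genes were read by more than 1 probe and the probes did not always give the same answer. Positions are those of the files (build rn4), and the position in the transcript is where the probe begins.
Cd68 (chr10:56481726-56481785, minus strand, transcript position 1115): gttatctcccttctctgtctttaagaacaa
Lyz2, main probe (chr7:56607738-56607797, minus strand, transcript position 1101): gatgagcttgtaacaccagacaataatcac
Lyz2, middle probe (chr7:56608123-56608182, minus strand, transcript position 716): acaaacagcacatatttacaggagacgagt
Lyz2, inner probe (chr7:56611226-56611285, minus strand, transcript position 191): caattataacacacaagccagaaactacaa
Msr1, main probe (chr16:56309938-56309997, plus strand, transcript position 4292): cctggaagtgctctcaagacttccattatc
Msr1, inner probe (chr16:56293586-56293645, plus strand, transcript position 648): gaacgtgtgcacaaagtatcagcagaaatc
Fcgr2b (chr13:86809091-86809150, minus strand, transcript position 1255): taggatgcataatctcagcgaggatcaact
Aif1, main probe (chr20:3716266-3716325, plus strand, transcript position 595): gggaaaagaagaagcagttgtgagccagag
Aif1, inner probe (chr20:3715562-3716143, plus strand, transcript position 413): tttctcagaatgatgctgggcaagagatct

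The inner Aif1 probe covers 582 bp of the genome and therefore crosses a gap in the alignment, whereas the other probes shown are 60 bp long on the genome. The main Msr1 probe is annotated to a predicted transcript variant and begins 16352 bp from the inner probe, which is annotated to the RefSeq mRNA. The inner Lyz2 probe shares a run of 23 bases with a probe of Lyc2, a related lysozyme gene, so its signal may hold both. No other probe of the 10 genes shared 20 or more bases with another probe on the array.

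In what follows, a level is the log2 of the processed intensity of a probe after quantile normalisation over the 16 arrays of a sex, and a difference of 1 is a doubling. A probe was tested in a sex when, in 1 or more of the groups, 80% or more of the arrays had it well above background, which held for 9 of the 10 genes in each sex. A gene was called at a false discovery rate (FDR, Benjamini-Hochberg over all probes tested) of 1% against sham and of 5% between the CLP groups, with limma fitted to the 3 groups of a sex. Levels of different probes, and levels of males and females, were not set against each other, because sex goes together with the slides on which the arrays lay.

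In males, CLP raised Cd68, Lyz2, Msr1 and Fcgr2b, 4 of the 9 genes tested, and lowered none. Over all 25864 probes tested in males, 7.81% were called in either direction and 3.87% were higher. The 9 genes had a median log2 fold change of 0.84 between CLP and sham, and all probes one of 0.01. In females, CLP raised Cd68, Lyz2 and Fcgr2b, 3 of the 9 genes tested, against 3.63% of the 25394 probes called in either direction and 1.82% higher. The median of the 9 genes was 0.54 in females and that of all probes -0.01.

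**Figure D1:**
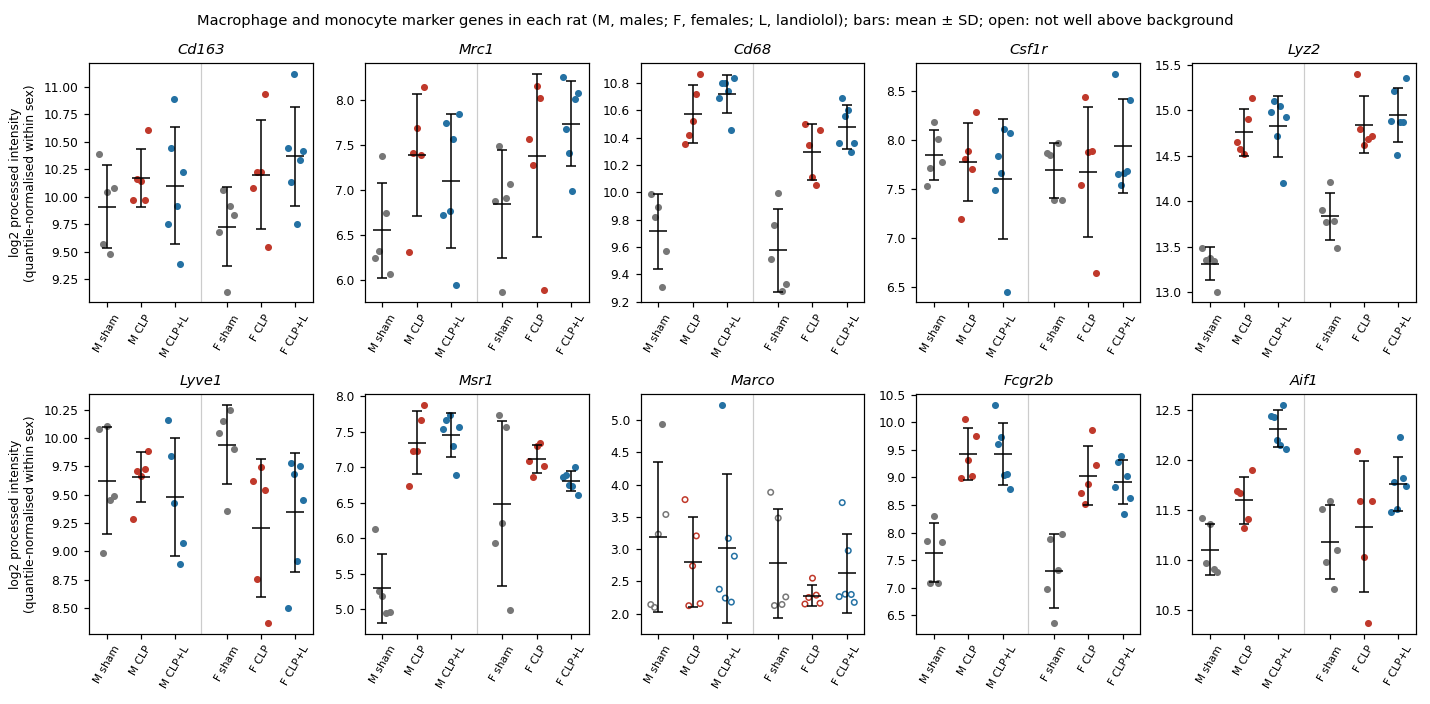
Level of each of the 10 genes in each rat (vertical axis, log2 processed intensity, quantile-normalised within a sex), by group (horizontal axis, M for males, F for females, L for landiolol); points are rats, bars the mean ± SD, and open points arrays where the probe was not well above background. Cd68, Lyz2 and Fcgr2b lie above the sham rats in every CLP rat of both sexes, and among males Aif1 lies highest in the CLP plus landiolol group, from 12.11 to 12.55.

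Cd68, a membrane protein of lysosomes and late endosomes, stood at levels of 9.99, 9.82, 9.89, 9.30 and 9.57 in the 5 male sham rats and of 10.36, 10.42, 10.52, 10.72 and 10.87 in the 5 male CLP rats. All septic males were above all sham males. The gene was 1.82-fold higher in the male CLP group (95% CI 1.48 to 2.24, log2 fold change 0.86 ± 0.14 SE, adjusted p = 0.000758, limma). In females, the sham rats had levels of 9.51, 9.76, 9.99, 9.28 and 9.33 and the CLP rats 10.50, 10.35, 10.11, 10.05 and 10.46. Again no rat of either group crossed into the other, and the CLP group was 1.65-fold higher (95% CI 1.31 to 2.07, adjusted p = 0.00806, limma). This female call lay close to the threshold, since leaving out 1 rat at a time gave adjusted p-values of 0.00396 to 0.0256 and ended it in 13 of 16 cases, and SAM (adjusted p = 0.0136) and a slide term (adjusted p = 0.0128, limma) ended it too.

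Lyz2, the lysozyme of myeloid cells, was read by 3 probes. Male sham rats had levels of 13.49, 13.35, 13.38, 13.35 and 13.01, and male CLP rats had 14.65, 14.57, 14.52, 14.91 and 15.13. The gap between the groups was wide, and Lyz2 was 2.71-fold higher after CLP (95% CI 2.10 to 3.49, adjusted p = 6.41e-05, limma). Female sham rats had levels of 13.90, 13.77, 14.22, 13.79 and 13.49, and female CLP rats had 15.40, 14.79, 14.62, 14.68 and 14.72. The groups did not overlap, and the difference was 2.01-fold (95% CI 1.52 to 2.65, adjusted p = 0.00334, limma; 0.0112 without female sham replicate 5). The middle probe was called in both sexes (log2 fold changes 1.58 in males and 1.11 in females). The inner probe, the one that shares bases with Lyc2, was called in males (1.62) and not in females (0.96, adjusted p = 0.0629, limma).

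Fcgr2b, the inhibitory Fc receptor, was read by 1 probe printed on 10 spots. Its levels were 7.84, 7.08, 8.31, 7.09 and 7.84 in male sham rats and 8.98, 10.06, 9.32, 9.03 and 9.75 in male CLP rats. The lowest septic male was above the highest sham male, and the group was 3.47-fold higher (95% CI 2.19 to 5.50, adjusted p = 0.00115, limma). In females the levels were 6.97, 7.88, 6.37, 7.33 and 7.98 after sham surgery and 8.71, 8.51, 8.88, 9.85 and 9.22 after CLP. The female groups were likewise apart, at 3.32-fold (95% CI 2.08 to 5.28, adjusted p = 0.00290, limma). When the sham and CLP arrays alone were fitted, the 3 female calls missed the FDR of 1%, with adjusted p-values of 0.0359 for Cd68, 0.0116 for Lyz2 and 0.0139 for Fcgr2b (limma).

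Msr1, the class A scavenger receptor, gave a female result that depended on the probe. With the main probe, male sham rats had levels of 6.13, 5.25, 5.19, 4.95 and 4.95, and male CLP rats had 6.73, 7.22, 7.23, 7.67 and 7.88. The groups did not overlap and Msr1 was 4.15-fold higher after CLP (95% CI 2.88 to 5.99, adjusted p = 7.36e-05, limma). The call was also made with normexp background correction, but at a log2 fold change of 1.13 in place of 2.05. In females the same probe read 5.94, 7.73, 6.22, 7.57 and 4.98 in sham rats and 7.08, 6.86, 7.30, 7.34 and 7.02 in CLP rats. The pair of sham rats with the highest levels, both on the second slide, exceeded all septic females, and the gene was not called (1.55-fold, 95% CI 0.88 to 2.73, adjusted p = 0.358, limma). The inner probe read 6.68, 6.56, 6.34, 6.38 and 5.89 in the same sham females and 7.26, 7.09, 7.72, 8.05 and 7.12 in the CLP females. With that probe the groups were apart and the call was made in females (log2 fold change 1.08 ± 0.21 SE, adjusted p = 0.00494, limma). In males it was called too (1.38, adjusted p = 0.00252), although the groups overlapped. Within the first female slide the main probe differed by 1.39 between CLP and sham and within the second by -0.52, against 1.27 and 0.90 for the inner probe. The female slides also differed in extraction protocol, so slide and protocol cannot be told apart.

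**Figure D2:**
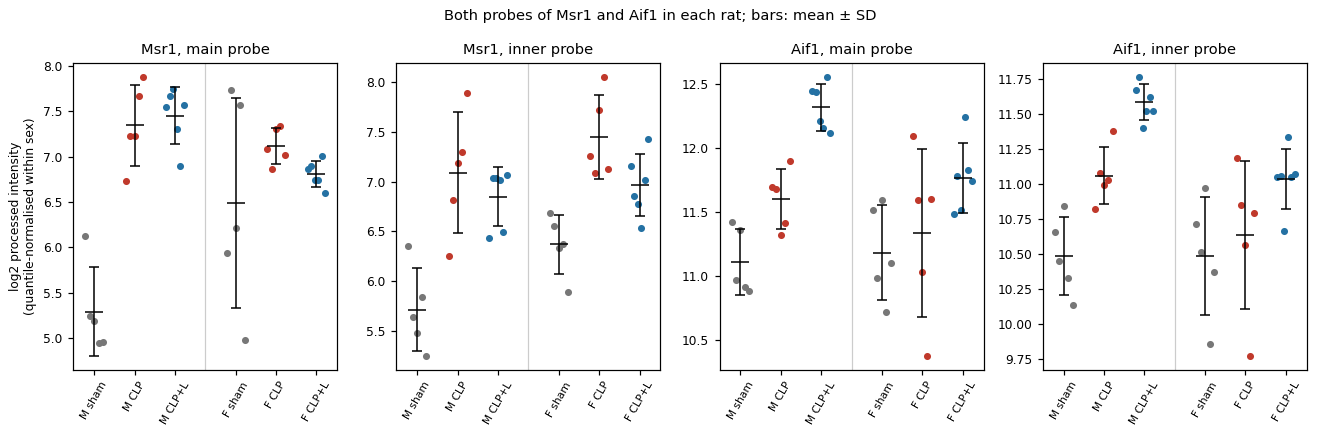
Levels of both probes of Msr1 and of Aif1 in each rat (vertical axis, log2 processed intensity, quantile-normalised within a sex), by group (M, males; F, females; L, landiolol); points are rats and bars the mean ± SD. The main Msr1 probe spreads from 4.98 to 7.73 in female sham rats and the inner probe from 5.89 to 6.68, whereas both Aif1 probes rise from CLP to CLP plus landiolol in males.

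The remaining genes did not pass the FDR after CLP in either sex. Aif1 came closest in males, from a mean level of 11.11 ± 0.26 (SD, n = 5) in sham rats to 11.60 ± 0.23 (SD, n = 5) in CLP rats, which is 1.41-fold (95% CI 1.13 to 1.75, adjusted p = 0.0326, limma). In females, Aif1 levels ran from 10.38 to 12.09 in CLP rats and enclosed those of the sham rats (1.11-fold, 95% CI 0.75 to 1.66). Mrc1, the mannose receptor, was 1.79-fold higher in septic males (95% CI 1.01 to 3.17, adjusted p = 0.168, limma) and 1.45-fold in septic females (95% CI 0.82 to 2.59, adjusted p = 0.457, limma). Its rats differed widely within a group, from 5.89 to 8.16 in the female CLP group. The 5.89 came from the array with the lowest median processed signal of that group (69.6). Cd163, the receptor for haemoglobin bound to haptoglobin, was 1.20-fold in males (95% CI 0.83 to 1.73) and 1.39-fold in females (95% CI 0.94 to 2.05). In males the interval of Mrc1 includes the fold change of Cd68 and that of Cd163 lies below it, and in females both include it.

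Csf1r, through which CSF1 and IL-34 keep macrophages alive, had group means of 7.84 ± 0.26 (SD, n = 5) in male sham and 7.77 ± 0.39 (SD, n = 5) in male CLP rats, and of 7.69 ± 0.28 (SD, n = 5) and 7.67 ± 0.66 (SD, n = 5) in females. The interval of the difference was 0.64 to 1.43-fold in males and 0.64 to 1.53-fold in females. A second Csf1r probe was well above background on 1 of the 32 arrays and was not used. Lyve1, a hyaluronan receptor, was 1.02-fold in septic males against sham (95% CI 0.70 to 1.49). In females it stood at 10.05, 10.15, 9.36, 10.25 and 9.90 in sham rats and at 9.62, 8.75, 9.74, 9.54 and 8.37 in CLP rats. The female groups overlapped through 1 sham rat, and the log2 fold change of -0.74 (95% CI -1.38 to -0.10) did not pass the FDR (adjusted p = 0.149, limma). One male CLP plus landiolol array had no Lyve1 value, because its spot was marked as an outlier, and the fit left that value out. Marco, a scavenger receptor of some tissue macrophages, was well above background on 2 of the 32 arrays, 1 of a male sham rat and 1 of a male CLP plus landiolol rat, and was not tested.

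**Figure D3:**
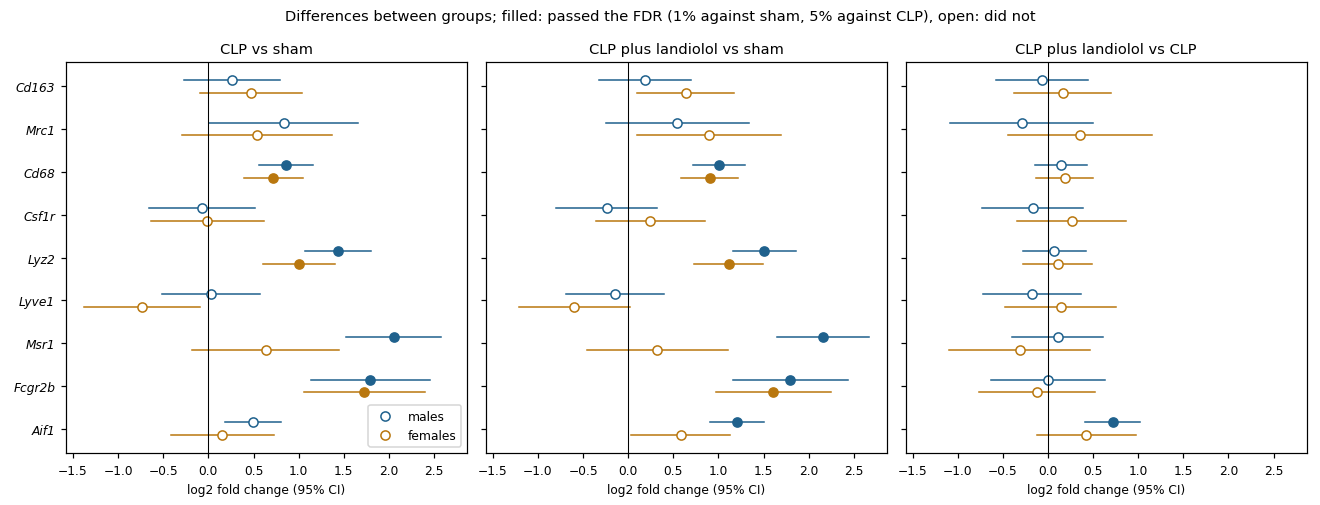
Log2 fold change (horizontal axis) of the 9 genes tested in the 3 comparisons, with 95% CI, males in blue and females in orange; filled points passed the FDR. Against sham, filled points are Cd68, Lyz2 and Fcgr2b in both sexes and Msr1 in males in both comparisons, with Aif1 in males only in the CLP plus landiolol group; between the CLP groups the single filled point is Aif1 in males at 0.72.

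Landiolol was compared with saline in septic rats to see how the β-blocker changed the septic heart. In males, 1 of the 9 genes was called, Aif1, which was higher, against 1.56% of all probes in either direction and 0.804% higher. Its levels were 11.69, 11.68, 11.32, 11.41 and 11.90 in the CLP rats. In the 6 CLP plus landiolol rats they had a lowest value of 12.11, a median of 12.32 and a highest value of 12.55. Every treated male was thus above every septic male on saline, and the difference was 1.64-fold (95% CI 1.33 to 2.02, log2 fold change 0.72 ± 0.14 SE, adjusted p = 0.0207, limma). The inner Aif1 probe went the same way by 0.53 on the log2 scale, with groups that were likewise apart, but missed the FDR (adjusted p = 0.0613, limma). The difference was 0.80 within the first male slide and 0.62 within the second. Leaving out replicate 3 or 4 of the male CLP group or replicate 2 of the male CLP plus landiolol group moved the adjusted p of the main probe to 0.0655, 0.0719 and 0.0524. Lists of other genes were also higher in treated males, and not those of leukocytes alone. Of 20 core genes of leukocytes and phagocytes, 17 were higher in treated males and 2 of them were called (median 0.44, 12 at an unadjusted p under 0.05), and their mean level ran from 10.37 to 10.75 in CLP rats and began at 10.71 with a median of 10.93 in CLP plus landiolol rats. All 8 markers of T, B and NK cells tested were higher without a call by limma (median 0.38, 4 at an unadjusted p under 0.05, 1 by SAM), with mean levels of 6.13 to 6.83 and of 6.74 to 7.48. Medians were also above 0 for dendritic cell markers (0.40, 5 of 7 higher), fibroblast markers (0.33, 6 of 8) and resident macrophage genes (0.24, 11 of 17). Those of the CSF1 axis (0.28, 11 of 15) and of blood endothelial markers (0.15, 7 of 10) were above 0 too. Medians were below 0 only for lymphatic endothelial markers (-0.12, 2 of 8 higher) and haem handling (-0.01, 4 of 9). All other lists lay above 0, from 0.02 for cardiomyocyte markers to 0.71 for the 2 red cell markers tested. The part of these lists in the difference of Aif1 was not tested.

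The other 8 genes gave no call in males. Cd68 was 1.11-fold (95% CI 0.91 to 1.35), Lyz2 1.05-fold (95% CI 0.82 to 1.34) and Msr1 1.08-fold (95% CI 0.76 to 1.53) with landiolol against CLP alone. Fcgr2b differed by 0.00 on the log2 scale, with an interval of 0.64 to 1.55-fold. The median of the 9 genes was 0.00 on the log2 scale, and that of all probes -0.01. In females limma called 0 of the 9 genes by their main probes (0 at an unadjusted p under 0.05, and 0 by SAM), where 0.0945% of all probes were called. The inner Msr1 probe was lower without a call (log2 fold change -0.49, 95% CI -0.92 to -0.05, unadjusted p = 0.0310, adjusted p = 0.470, limma). The female difference of Aif1 was 1.34-fold (95% CI 0.92 to 1.97, adjusted p = 0.655, limma), an interval that includes the value of the males. This female comparison is also tied to the row on the slide, as given below.

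Against sham, the male CLP plus landiolol group had 5 of the 9 genes called, all higher, where 4.15% of all probes were called and 2.4% were higher. They were Cd68 (2.01-fold), Lyz2 (2.85-fold), Msr1 (4.47-fold), Fcgr2b (3.48-fold) and Aif1 (2.31-fold, adjusted p = 9.11e-05, limma). Msr1 was not called by its inner probe in this comparison (2.20-fold, adjusted p = 0.0104, limma), and normexp correction gave its main probe a log2 fold change of 1.20 in place of 2.16. In males the mean level of Aif1 thus stepped from 11.11 in sham to 11.60 in CLP and 12.32 in CLP plus landiolol, with adjusted p-values of 0.0326 for the first step, judged at 1%, and 0.0207 for the second, judged at 5%, so that both would pass at 5% and neither at 1%. For the other 4 genes no difference between the CLP groups passed the FDR. In the female CLP plus landiolol group 3 genes were called, all higher, with 5.25% of all probes called and 3% higher. They were again Cd68 (1.87-fold), Lyz2 (2.16-fold) and Fcgr2b (3.05-fold). The 2 comparisons with sham share the sham rats, so they are not separate evidence.

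The position of the female arrays bears on these female results. All 5 female sham arrays lay in row 1 of their slides and all 6 CLP plus landiolol arrays in row 2, with 3 CLP arrays in row 1 and 2 in row 2. With the row as a term, limma called 0 of the 9 genes between CLP and sham in females, and the effects on the log2 scale were 0.75 for Cd68 (adjusted p = 0.0302), 1.10 for Lyz2 (adjusted p = 0.0103) and 1.40 for Fcgr2b (adjusted p = 0.0271). Within row 1, the 3 CLP and 5 sham rats differed by those same amounts, with adjusted p-values of 0.0904, 0.0370 and 0.0690 (limma). The equal amounts follow from the layout, since the row term leaves only row 1 to compare CLP with sham, and are not separate evidence. For CLP plus landiolol against sham the group and the row cannot be told apart except through the CLP rats, and the row term ended those 3 calls too. Its log2 fold changes were 0.97 for Cd68 (0.90 without the term, adjusted p = 0.198), 1.35 for Lyz2 (1.11 without, adjusted p = 0.115) and 0.77 for Fcgr2b (1.61 without, adjusted p = 0.675, limma). Between CLP plus landiolol and CLP in females, limma with the row term called 0 genes. There the log2 fold change of Aif1 was 0.78 (0.43 without the term) and that of Fcgr2b -0.62 (-0.12 without). That of Cd68 was 0.22 (0.18 without). In males every group lay in both rows. Within the male slides the CLP effect was 0.53 and 1.20 for Cd68, 1.16 and 1.77 for Lyz2, 1.99 and 1.64 for Fcgr2b and 1.37 and 2.74 for Msr1, and within the female slides it was 0.59 and 0.84, 0.87 and 1.13, and 2.08 and 1.33 for Cd68, Lyz2 and Fcgr2b.

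Whether the effects differed between males and females was tested as an interaction over all 32 arrays, here quantile-normalised together. For CLP, limma called 0 of the 9 genes and 0% of all 26490 probes, and 1 gene had an unadjusted p under 0.05. That gene was Msr1, by the probe whose female sham levels were split between the slides (male minus female log2 fold change 1.43, 95% CI 0.46 to 2.40, unadjusted p = 0.00544). With the inner Msr1 probe the difference was 0.30 (95% CI -0.41 to 1.02). For landiolol 0 genes and 0% of all probes were called, and 0 genes had an unadjusted p under 0.05, with a difference of 0.28 for Aif1 (95% CI -0.34 to 0.90). That fit held no row term, although all female CLP plus landiolol arrays lay in row 2. A call in one sex only is therefore not shown to be a difference between the sexes.

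Related genes were followed through lists of genes around these markers. Of 15 genes of the CSF1 axis and of lineage factors, 2 rose and 1 fell after CLP in males and 0 were called in females (8 at an unadjusted p under 0.05 by limma, 1 by SAM). Csf2rb, the common β-chain of the receptors for GM-CSF and IL-3, rose by 2.31 in males (adjusted p = 7.65e-05, limma), and Cebpb by 0.67. Il34, a ligand of Csf1r, fell by 1.09 in males (adjusted p = 0.000746, limma) and was higher by 0.86 in the male CLP plus landiolol group than in the CLP group (adjusted p = 0.0217). Csf1, the other ligand, differed by -0.55 in males and -1.40 in females without a call (adjusted p = 0.665 and 0.0695, limma).

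Resident macrophage genes were tested for 17 of 19 genes in males and 16 in females. In males 2 rose and 1 fell, in females 1 rose, with medians of -0.05 and 0.01. Adgre1, the F4/80 antigen, rose by 2.79 in males and 2.79 in females (adjusted p = 7.65e-05 and 0.000259, limma). Vsig4, a complement receptor, was not well above background in any male sham rat and was at least 3.94-fold higher in the male CLP group (adjusted p = 0.00335, limma). It passed the filter in males through septic rats alone, so this rise is partly set by the filter. Gas6 fell by 1.08 in males. C1qa differed by 0.19 and 0.09 and Cx3cr1 by -0.38 and 0.53 in males and females, none of them called. In the landiolol comparison the single call of this list was Trem2 in males, which fell by 1.96 (adjusted p = 0.0259, limma), a gene chosen after its values were seen.

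Among recruited monocyte genes, 3 of 17 rose in males and 1 of 16 in females, and none fell, with medians of 0.01 and -0.08. Chi3l1, a chitinase-like protein, rose by 3.32 in males and 2.73 in females, and the integrin subunits Itgb2 and Itgam rose by 1.31 and 1.27 in males. The chemokine receptor Ccr2 was not tested in either sex, since it was near background. Of 20 core genes of leukocytes and phagocytes, 4 rose and 2 fell in males and 5 rose and 1 fell in females. The oxidase subunit Ncf4 (1.61 and 1.28) rose in both sexes, whereas the oxidase subunit Ncf1 fell (-1.42 and -1.71). Ptprc, the pan-leukocyte antigen CD45, differed by -0.14 in males and -0.23 in females and was not called, but rose by 0.55 with landiolol in males (adjusted p = 0.0451, limma), as did the actin-binding Coro1a by 0.68 (adjusted p = 0.0309).

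Among 13 other scavenger and pattern-recognition receptors tested, limma called 0 after CLP in either sex (5 in males and 3 in females at an unadjusted p under 0.05, and 1 in each sex by SAM). Of the genes of macrophage activation states, 1 of 13 rose and 2 fell in males and 1 of 14 rose and 1 fell in females. The cytokine Il10 rose by 3.36 on the log2 scale in males. In females it rose at least 2.82-fold, and no sham array was well above background there. It passed the filter in females through the CLP groups alone, so that rise is partly set by the filter. The chemokine Cxcl10 fell by 2.66 in males and 5.08 in females, and Arg1 fell by 1.60 in males. Of 9 genes of haem handling, 3 rose in males and 2 in females, with Hmox1, which breaks down haem, higher by 2.91 and 3.16. Hp, the plasma partner of Cd163, differed by 0.19 and -0.04 without a call. Of 10 glucocorticoid-induced genes, 3 rose in males and 2 in females, among them the chaperone Fkbp5 by 1.22 and 0.90. Glucocorticoids are known to raise Cd163 too.

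**Figure D4:**
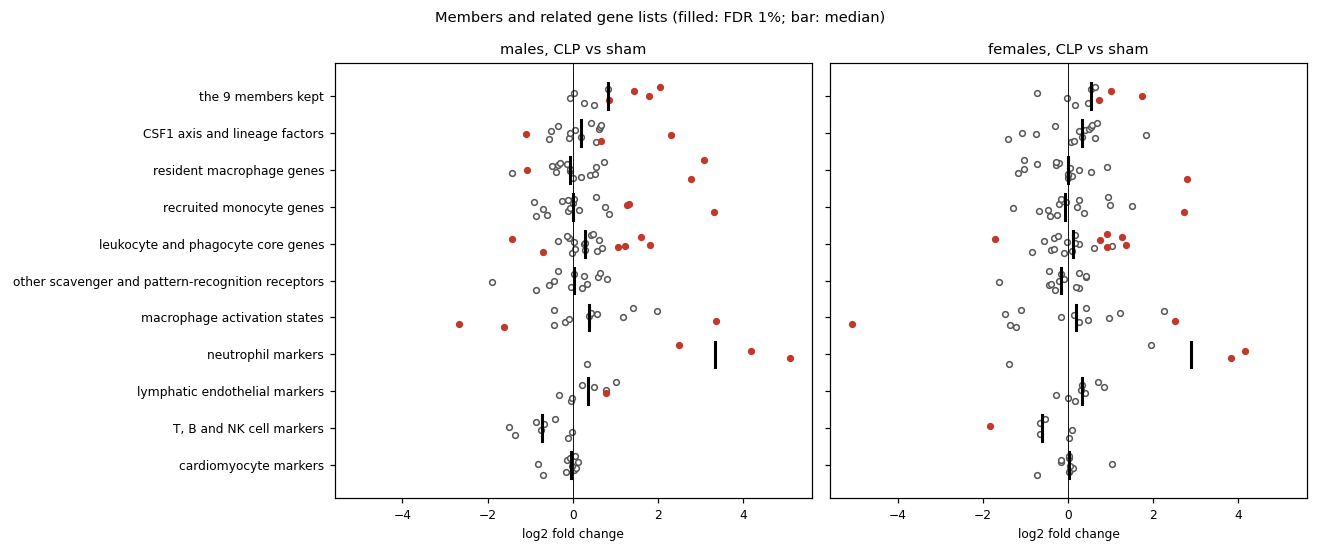
Log2 fold change between CLP and sham (horizontal axis) of the 9 marker genes and of genes in related lists (rows) in males and females; each point is a gene, filled where it passed the FDR of 1%, and the bar is the median of the list. The medians of the 9 marker genes are 0.84 and 0.54, those of the resident macrophage genes -0.05 and 0.01, and the largest medians are those of the 4 neutrophil markers tested, 3.34 and 2.89. Only 4 of 15 neutrophil markers passed the filter, S100a8 in males through the CLP groups alone, so this ranking is partly set by the filter.

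Markers of other cells moved with CLP as well. Of 15 neutrophil markers, 4 were tested in each sex. In males S100a8 passed the filter through the CLP groups alone, so its rise and that of the mean of the 4 are partly set by the filter. The alarmin S100a8 was not well above background in any male sham rat and was at least 11.3-fold higher in the male CLP group (adjusted p = 2.69e-05, limma), and in females its log2 fold change was 4.15. S100a9 rose by 2.50 in males and Lcn2 by 5.10 in males and 3.82 in females, and the fourth, Fcnb, was not called. The mean level of the 4 ran from 5.06 to 5.59 in male sham and from 7.77 to 9.30 in male CLP rats, and from 5.21 to 6.47 and from 7.64 to 8.29 in females. The granule genes Elane, Prtn3, Ngp and Mmp8 were not well above background on any sham or CLP array, and Mpo was so on 1. The part of neutrophils in the rise of Lyz2 was not tested. After CLP, markers of T, B and NK cells had medians of -0.71 in males (8 tested, 0 called by limma, 4 at an unadjusted p under 0.05 and 3 by SAM) and -0.60 in females (6 tested, 1 lower), and Cd3e was near background. Of 8 lymphatic endothelial markers, which bear on Lyve1, 1 rose in males and 0 were called in females (2 at an unadjusted p under 0.05 by limma, 0 by SAM), with medians of 0.36 and 0.32. Of 10 blood endothelial markers 1 fell in each sex (Emcn), and of 8 fibroblast markers 4 fell and 1 rose in males and 0 were called in females (6 at an unadjusted p under 0.05 by limma, 1 by SAM). Of 10 cardiomyocyte markers limma called 0 in either sex, with 1 in each at an unadjusted p under 0.05 and 1 in males and 0 in females by SAM. Dendritic cell markers had 1 call among 7 tested in males (Cd83, lower) and 1 among 6 in females (Zbtb46, lower). Red cell markers had 1 call among 2 and 3 tested, Slc4a1, which was lower. Of these markers 0 of 2 were higher in males (median -1.63) and 2 of 3 in females (median 1.65), the latter without a call.

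Across rats, the 9 genes did not form a single block. Over the 36 pairs of genes, Pearson r across the 16 arrays of a sex ran from -0.32 to 0.97 in males and from -0.59 to 0.88 in females, and these arrays share the difference between groups. After the group means were taken away, the highest r was 0.91 in males and 0.67 in females, in both sexes between Mrc1 and Csf1r. In each group the dimmest array was that with the lowest median processed signal. That array was lowest for both genes in the male CLP, male CLP plus landiolol, female sham and female CLP groups. In the male sham and female CLP plus landiolol groups it was lowest for only Mrc1 or only Csf1r. The part of array brightness in this r was not tested. The genes with the most similar profile, taken as the lower of the r in males and in females (16 arrays each), were C3 for Cd68 (0.917), Slc11a1 for Lyz2 (0.904), Lvrn for Fcgr2b (0.877), Coro1a for Aif1 (0.869), Tectb for Msr1 (0.677), Scara5 for Cd163 (0.782), Mkrn1 for Mrc1 (0.864), Dbndd2 for Csf1r (0.893) and Ccrl2 for Lyve1 (0.613).

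Promoter sequence was available for 7 of the 10 genes (RefSeq, build GRCr8), and Cd68 and Lyz2 are shown because they rose in both sexes. The windows hold the 250 bases before the start of transcription, and capitals mark GAGGAA on either strand, the core bound by the lineage factor PU.1.
Cd68 (chr10:54882442-54882691, minus strand): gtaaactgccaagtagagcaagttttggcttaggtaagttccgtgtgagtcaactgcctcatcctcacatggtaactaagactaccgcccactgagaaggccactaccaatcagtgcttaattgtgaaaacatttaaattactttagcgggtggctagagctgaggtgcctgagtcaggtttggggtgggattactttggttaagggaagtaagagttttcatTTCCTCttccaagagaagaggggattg
Lyz2 (chr7:54798012-54798261, minus strand): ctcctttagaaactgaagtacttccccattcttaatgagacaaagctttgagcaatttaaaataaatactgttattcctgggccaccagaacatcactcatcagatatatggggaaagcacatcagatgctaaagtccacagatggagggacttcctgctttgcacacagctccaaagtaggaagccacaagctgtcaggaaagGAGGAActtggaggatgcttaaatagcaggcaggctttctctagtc
The motif began 27 bases before the start of Cd68 and 46 before that of Lyz2. Of the 7 promoters 5 held it, those of Cd68, Lyz2, Mrc1, Csf1r and Marco, and of all 33469 promoters 23.3% did. Genes with a match include Csf1r and Mrc1, which were not called. Spi1, which encodes PU.1, differed by 0.42 in males and 0.69 in females after CLP without a call (adjusted p = 0.126 and 0.215, limma).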

How the data were processed

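Each of the 32 samples is 1 left ventricle on a 1-colour Agilent array of 62976 spots. The authors deposited the output of Agilent Feature Extraction 10.5, in which the processed intensity is corrected for background and detrended within the array, beside mean and background intensities and quality marks. The headers name one extraction protocol for the 8 arrays of the first female slide and another for the other 24 arrays. They also deposited a table of log2 values, quantile-normalised and filtered, used here as an alternative. Per the file headers, coordinates are of build rn4. Arrays limit precision by their number; 34920 to 43155 spots per array were well above background and 0 were saturated.

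Here, control and outlier spots were left out (213 missing probe values), processed intensities were taken as log2, replicate spots were averaged and quantiles were equalised over the 16 arrays of each sex. For the interaction, quantiles were equalised over all 32 arrays together. Groups, taken from the sample labels, were compared with limma 3.58.1 in R 4.3.3 (eBayes without trend, 3 groups of a sex in 1 fit, Benjamini-Hochberg over all probes kept). The fit was tested on simulated data: a shift of 1 on the log2 scale was recovered for 41% of changed probes in males and 27.5% in females between CLP and sham, and a shift of 2 for 92% and 84%. "At least" folds set the mean of the bright group against the higher of the probe's own signal and the lowest signal well above background in the dim group. A gene dim in sham was tested only because a CLP group was bright, so its rise is partly set by the filter. Rat numbers follow accession order and pair no samples. Each rat is a separate animal.

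Every marker gene is named, by its brightest probe, and from each list up to 4 called genes with the largest CLP change, with a few genes that carry the list's name. The genes and lists were chosen with earlier results of these data known. Alternatives were other scaling, background correction, filters, fits, slide or row terms, SAM with 100 permutations, exchanged FDR levels, the authors' table, any probe of a gene and leaving out each array; restricting females to row 1 was chosen after seeing the data. One gene of a list is not reported here.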

Additional observations from a re-analysis of the deposited data

Results flagged for a closer look

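Within the 54 groups of rats in which a tested gene was looked at, 4 held a rat whose level lay far from the others, where chance alone gives about 1 in 20 groups. The 4 values were Lyz2 at 15.40 in female CLP replicate 1 (next rat 14.79), Lyz2 at 13.01 in male sham replicate 5 (next rat 13.35), Msr1 at 6.13 in male sham replicate 1 (next rat 5.25) and Csf1r at 6.46 in male CLP plus landiolol replicate 5 (next rat 7.49). The array of this last rat had the lowest median processed signal of all 32 arrays (49.2). In the calls of Lyz2 and Msr1 in males these rats did not decide the result, since the calls held without each of them.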

How the results depend on the processing

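Among 1519 values of single genes under the alternatives, 1452 kept their direction and their side of the threshold, 32 calls were lost, 1 was gained, 34 uncalled values changed sign and 0 called values did. The counts of genes called moved by more than 1.5 times as follows, where the cause was not tested. For CLP against sham in females (3 genes), fitting only the groups compared, the row as a term and the arrays of row 1 alone each gave 0, and leaving out 1 array gave 1 to 3, the lowest without female sham replicate 5. For CLP plus landiolol against sham in females (3 genes), the row as a term gave 0. For landiolol against CLP in males (1 gene), an FDR of 1% gave 0 and leaving out 1 array gave 0 to 1. In males the counts against sham stayed at 4 to 5 and at 5. No paired analysis was possible because the rats carry no shared number in the labels. The number of arrays limits what can be seen: a shift of 0.5 was recovered for 0% of simulated probes at the FDR of 1%.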
